A study of Chlamydomonas reinhardtii with 9 samples.

Results

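The regions described here are places on the chromosomes of Chlamydomonas reinhardtii, a unicellular green alga, where peaks of HA-tagged PAF1 were called repeatedly and no peak of HA-tagged SKIP was called. Peaks came from ChIP-seq, in which chromatin fragments pulled down by an antibody, here against the HA epitope tag, are sequenced, in 3 libraries of a PAF1-HA line and 3 libraries of a SKIP-HA line. All peak intervals of the 6 libraries were pooled, and intervals overlapping by at least 1 bp were merged into regions. A region was kept if it lay on 1 of the 17 chromosomes, held peaks of at least 2 of 3 PAF1-HA libraries and held none of any SKIP-HA library. This left 1379 of 36946 merged regions on the chromosomes (3.73%), which is 10.7% of the 12841 regions with peaks in at least 2 PAF1-HA libraries. With regions on other sequences, the series held 37052 merged regions in all. Every library bore on the number. Without PAF1-HA replicate 1, 2 or 3 it was 740, 716 or 697. These were 9.15%, 9.10% or 8.81% of the regions that then had at least 2 PAF1-HA libraries. Without SKIP-HA replicate 1, 2 or 3 it was 2234, 2434 or 2568, or 17.3%, 18.8% or 19.9% of such regions. The share thus moved less than the number when a PAF1-HA library was left out.

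Both lines are in the CC5325 strain background, per the labels, which give "paf1" and "skip" as genotype or cell type. Whether the lines carry a mutation beside the tagged protein is not stated, nor is the promoter of the tagged copy or the number of clones. Replicates 1 and 2 of each line share 1 set of label fields and replicate 3 of each carries another; the labels do not say whether replicates were separate cultures. The untagged wild type has 3 libraries in the labels, whose peaks were not analysed here, so no value has a background from untagged cells beside it. Peaks are intervals without a score, 99.98% of them 400 bp wide, and their depth in reads is unknown. The SKIP-HA lists were longer, with 19631, 22225 and 24615 peaks on the chromosomes against 16252, 16928 and 17564 for PAF1-HA.

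PAF1 gives its name to a complex that accompanies RNA polymerase II along transcribed genes, helps elongation and is needed for histone modifications that accompany it, among them ubiquitination of histone H2B. SKIP is an SNW-domain protein of the spliceosome that also acts in transcription. In Arabidopsis the SKIP protein binds the PAF1 complex and both act on flowering genes. Positions with PAF1 and without SKIP peaks show where the calls of these proteins part. A missing peak is a missing call, not proof that the protein is absent. Since the members were chosen from peaks of these 6 lists, their PAF1-HA and SKIP-HA peaks are given as a description without a test.

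Most members rested on the minimum of 2 PAF1-HA libraries, with no pair of libraries supplying the majority. Peaks of all 3 PAF1-HA libraries were found in 308 members (22.3%). The pair of replicates 2 and 3 gave 392 members, replicates 1 and 3 gave 355 and replicates 1 and 2 gave 324. Members took up 6.66% of the peaks of PAF1-HA replicate 1, 6.57% of replicate 2 and 6.59% of replicate 3. The 3 PAF1-HA libraries therefore contributed about equally.

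The more SKIP-HA libraries a PAF1-HA region had, the more often all PAF1-HA libraries were also present. Regions with at least 2 PAF1-HA libraries and peaks of exactly 1 SKIP-HA library, the class just outside the rule, had all 3 PAF1-HA libraries in 28.9% of 2675 cases (95% Wilson interval 27.2 to 30.6). With 2 SKIP-HA libraries this was 38.2% of 3896 (36.7 to 39.8), and with 3 it was 61.8% of 4891 (60.5 to 63.2). For the members it was 22.3% (20.2 to 24.6). These shares come from the values that chose the regions and are a description. The intervals cover counting error only, here and later. Among the 2675 regions just outside, the single SKIP-HA library was replicate 1 in 708, replicate 2 in 899 and replicate 3 in 1068, which is also the order of the list lengths. On the other side of the PAF1-HA threshold, 3892 regions had peaks of 1 PAF1-HA library and no SKIP-HA library.

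Members were small and mostly simple regions. Their median width was 543 bp, from 379 to 3009 bp, and 83.7% had no more than 1 peak in any PAF1-HA library. In regions with peaks of 1 SKIP-HA library, the PAF1-HA peaks alone spanned a median of 618 bp, and 74.4% had no more than 1 peak per PAF1-HA library. In regions with all 3 SKIP-HA libraries these values were 653 bp and 59.2%. A narrow region also leaves less room for a SKIP-HA peak to overlap it, and the part of this in the widths was not tested. The centres of overlapping PAF1-HA peaks from different libraries lay a median of 86 bp apart in members for replicates 1 and 2, 94 bp for replicates 1 and 3, and 109 bp for replicates 2 and 3, with a mean of 96.3 ± 11.7 bp (SD over 3 pairs of libraries). Regions with 1 or 2 SKIP-HA libraries gave 114 ± 2.78 and 94.7 ± 6.81 bp, and regions with all 3 gave 32.7 ± 1.53 bp. In position, the PAF1-HA replicates thus matched each other in members about as loosely as in regions with 2 SKIP-HA libraries, and less closely than where SKIP-HA peaks were present in every library.

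Distance to SKIP-HA was short for most members, as it was between regions of other classes. The median gap from the edge of a member to the nearest SKIP-HA peak was 389 bp, less than the width of 1 peak. Within 100 bp of a SKIP-HA peak lay 251 members (18.2%), within 400 bp 703 (51.0%) and within 1 kb 1030 (74.7%, 95% Wilson interval 72.3 to 76.9). Members farther than 1 kb numbered 349 (25.3%), those beyond 5 kb 54 (3.92%) and those beyond 10 kb 18 (1.31%). Members in all 3 PAF1-HA libraries were not set apart by this measure, with a median of 432.5 bp against 377 bp for members in 2 libraries.

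By construction, no single SKIP-HA library lay nearer than the 3 lists together. The median distance was 1306 bp to replicate 1, 1073 bp to replicate 2 and 877 bp to replicate 3, with a mean of 1085 ± 215 bp (SD, n = 3 libraries). The order follows the lengths of the lists, with the longest list nearest. A peak within 1 kb was found in all 3 SKIP-HA libraries for 306 members, in 2 for 373, in 1 for 351 and in none for 349. SKIP-HA peaks stood within 1 kb on both sides of 462 members (33.5%) and on 1 side of 568 (41.2%).

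**Figure D1:**
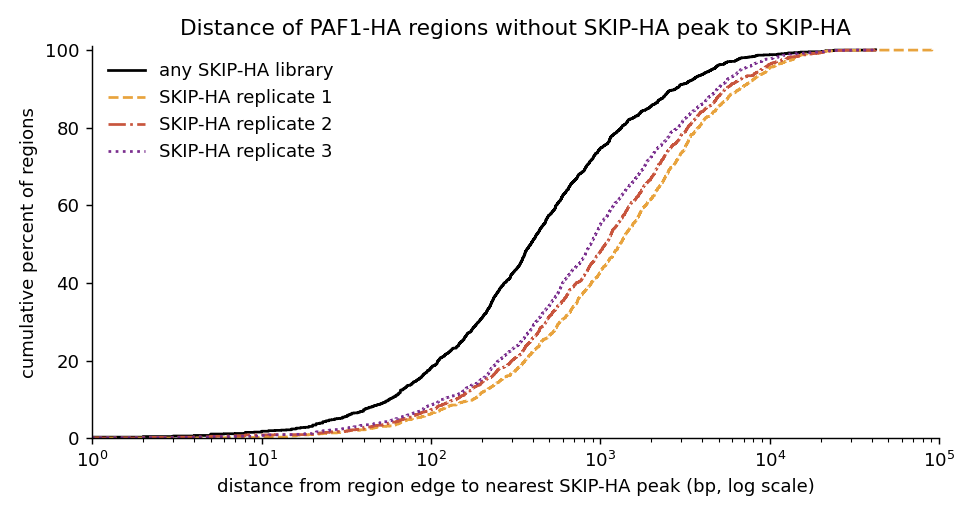
Cumulative percent of the 1379 PAF1-HA regions without SKIP-HA peak (vertical axis) by the distance in bp from the region edge to the nearest SKIP-HA peak (horizontal axis, log scale), for any SKIP-HA library and for each of the 3 libraries. The line for any library passes the median at 389 bp, and the lines of the single libraries pass it at 877 to 1306 bp.

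From edge to edge, the nearest other region with SKIP-HA peaks was a median of 319 bp from members. The same distance was 290 bp for PAF1-HA regions with SKIP-HA peaks, 321 bp for regions with at least 2 SKIP-HA and no PAF1-HA library, and 263 bp for regions with 1 PAF1-HA and no SKIP-HA library. This nearest region with SKIP-HA peaks often held PAF1-HA as well. Its near edge can be that of a PAF1-HA peak, so it need not hold the nearest SKIP-HA peak. Regions widened by PAF1-HA peaks reach nearer by this measure, and the part of width in the shares below was not tested. For 562 members (40.8%) that neighbour had peaks of 2 or 3 PAF1-HA libraries, for 351 (25.5%) of 1, and for 466 (33.8%) of none. Over all 31675 chromosome regions with SKIP-HA peaks, these shares were 36.2%, 22.6% and 41.2%. The neighbour had peaks of 1 SKIP-HA library in 50.9% of cases, of 2 in 30.5% and of 3 in 18.6%, near the 48.2%, 29.4% and 22.4% over all such regions.

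Regions lay on both sides of the rule's limit, with a step in their number there. When each PAF1-HA region was described by the smallest gap from the centre of any of its PAF1-HA peaks to the centre of any SKIP-HA peak, 9728 of the 12841 regions (75.8%) had centres less than 100 bp apart. Counts then fell to 1191 at 100 to 200 bp, 389 at 200 to 300 bp and 154 at 300 to 400 bp, all of them regions with a SKIP-HA peak. Just inside the rule, 249 members lay at 400 to 500 bp, followed by 177, 156 and 119 in the next 100 bp steps. The smallest distance in a member was 401 bp and the median 789 bp, while in regions with SKIP-HA peaks the median was 19 bp and the largest 399 bp, as the width of the peaks fixes. In these 100 bp steps, counts fell up to the limit, stepped up from 154 to 249 there and fell again beyond it. The limit is where peaks 400 bp wide no longer merge, and the part of merging in the step was not tested.

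**Figure D2:**
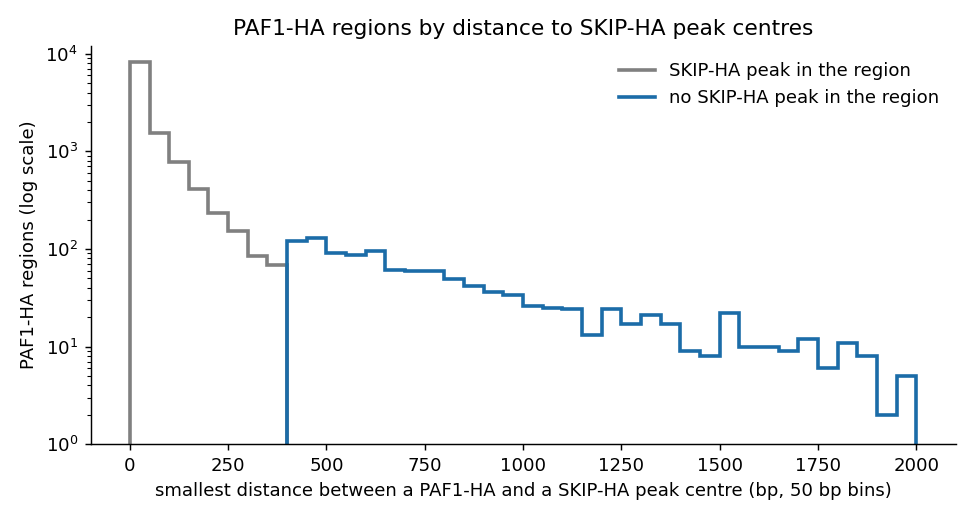
Number of PAF1-HA regions (vertical axis, log scale) by the smallest distance in bp from a PAF1-HA to a SKIP-HA peak centre, in bins of 50 bp up to 2000 bp; grey, regions with a SKIP-HA peak; blue, regions without. Numbers fall steeply from 0 to 400 bp, step up at 400 bp, where the rule begins and peaks no longer merge, and decline slowly after it.

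The nearest 5 members with all 3 PAF1-HA libraries show what a narrow miss looks like. On chromosome 7 (6436909 to 6437733) and chromosome 9 (2473258 to 2473702) a SKIP-HA peak ended 1 bp before the region. The chromosome 7 region had peaks of SKIP-HA replicates 1, 2 and 3 at 1, 87 and 637 bp. The chromosome 9 region had them at 294, 623 and 1 bp. The regions on chromosome 12 (276312 to 277314), chromosome 2 (659927 to 660429) and chromosome 6 (3098981 to 3099796) were 3, 4 and 5 bp from a SKIP-HA peak. On chromosome 2 all 3 SKIP-HA libraries had a peak within 16 bp of the region, whereas on chromosome 12 replicate 1 was 2941 bp away. Coordinates here and later are 1-based positions in the unnamed build of the files.

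A reading in lists that took no part in the choice asked how well the label of PAF1 without SKIP carried over. Regions were chosen again from 2 PAF1-HA and 2 SKIP-HA lists, as those with peaks in both PAF1-HA lists and in neither SKIP-HA list, and were then looked up in the PAF1-HA and the SKIP-HA list left out. All 9 choices of lists were run, which gave 1127 to 1398 regions each. The PAF1-HA list left out had a peak in 51.5% ± 2.15 of them (SD over 9 choices, range 47.9 to 55.1), and the SKIP-HA list left out in 42.7% ± 3.78 (range 37.6 to 47.1). PAF1-HA was the higher in 9 of 9 choices, by a ratio of 1.04 to 1.37. The 9 choices share libraries and are not independent, so no p-value is given.

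Set against all regions of the same 4 lists, the PAF1-HA share was higher and the SKIP-HA share slightly lower. Over all 33527 to 36152 regions, the lists left out had peaks in 39.7% ± 1.24 (PAF1-HA) and 47.7% ± 3.60 (SKIP-HA). Where both PAF1-HA and both SKIP-HA lists had peaks, the shares were 78.9% ± 0.565 and 81.7% ± 1.32. Where both PAF1-HA and 1 SKIP-HA list had peaks, they were 60.2% ± 1.17 and 61.7% ± 3.31. The opposite choice, both SKIP-HA lists and no PAF1-HA list, gave 29.1% ± 1.36 and 52.9% ± 4.23, with SKIP-HA the higher in 9 of 9 choices. Where only 1 PAF1-HA list had peaks, the shares were 31.7% ± 2.28 and 32.3% ± 3.73, with PAF1-HA the higher in 4 of 9 choices. Where only 1 SKIP-HA list had peaks, they were 18.4% ± 1.46 and 32.2% ± 4.39. The SKIP-HA share of 42.7% was thus above that of both kinds of region with a peak in only 1 list, which had median widths of 400 bp. Regions chosen for PAF1-HA without SKIP-HA thus still met a peak of the unused SKIP-HA list in 37.6 to 47.1% of cases. These regions were wider than regions over all, with medians of 530 to 542 bp against 423 to 427 bp over the 9 choices, and the part of width in the shares was not tested. With replicate 3 of both lines read, the 2 libraries with other label fields, the shares were 52.8% (95% Wilson interval 50.1 to 55.5) and 46.3% (43.6 to 49.0) of 1297 regions.

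Greater distance from the SKIP-HA peaks used for the choice went with a lower SKIP-HA share up to 5 kb only. The SKIP-HA list left out had peaks in 48.2% ± 4.34 of regions up to 200 bp from a SKIP-HA peak, in 42.0% ± 4.56 at 200 bp to 1 kb and in 37.5% ± 3.82 at 1 to 5 kb. Beyond 5 kb, with 42 to 102 regions per choice, it was 44.8% ± 8.42. The PAF1-HA list left out stayed between means of 49.5% and 53.3% in these 4 groups (SD 2.14 to 8.75 over 9 choices). Within each choice of lists, the SKIP-HA share was lower at 200 bp to 1 kb than up to 200 bp in 9 of 9 choices, and lower again at 1 to 5 kb in 9 of 9. From there to beyond 5 kb it was lower in 2 of 9.

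**Figure D3:**
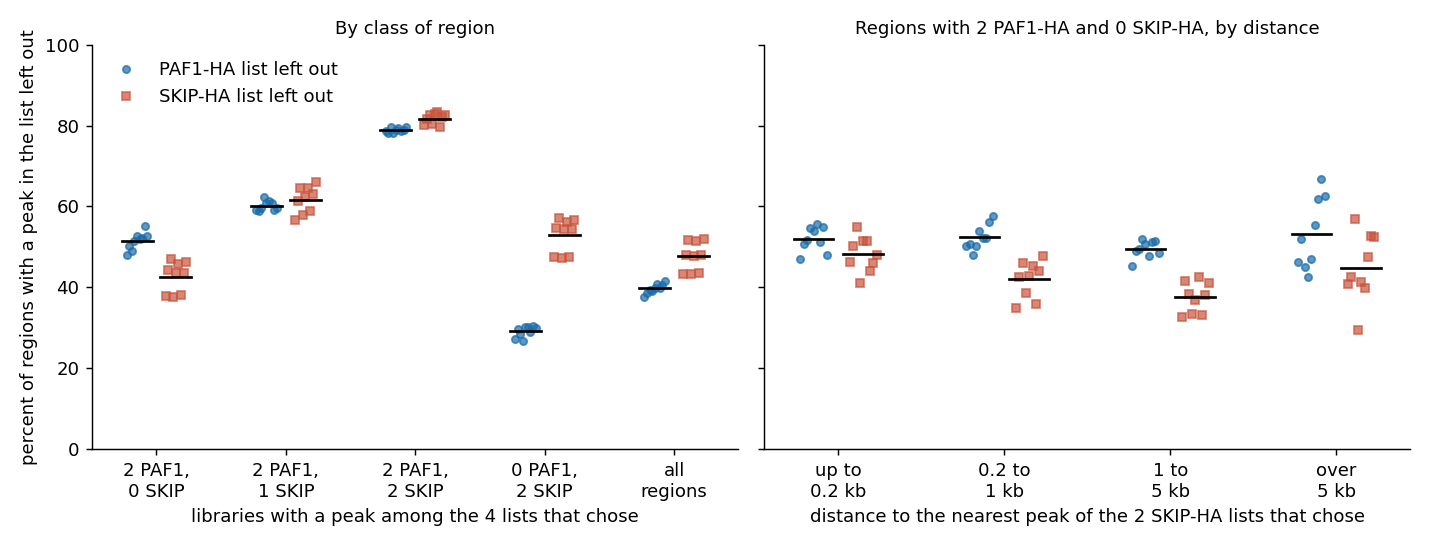
Percent of regions with a peak in the PAF1-HA list (blue circles) or SKIP-HA list (red squares) left out of the choice, 1 point for each of 9 choices and a black bar for their mean; left, by the libraries with peaks in the 4 lists that chose; right, regions with both PAF1-HA and no SKIP-HA list, by distance to the nearest SKIP-HA peak that took part. PAF1-HA lies above SKIP-HA for regions chosen as PAF1-HA without SKIP-HA (51.5% against 42.7%) and below it over all regions (39.7% against 47.7%).

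The surroundings of members were rich in peaks of both proteins. Peak centres were counted at set distances from the region edge and divided by each library's own mean density over the chromosomes, so that the longer SKIP-HA lists do not weigh more. At 500 to 1000 bp the density of PAF1-HA peaks was 2.35 ± 0.0872 times the library mean, and that of SKIP-HA peaks 1.76 ± 0.0458 times (SD, n = 3 libraries each). At 2 to 3 kb the values were 1.96 ± 0.0255 and 1.48 ± 0.0542, and at 7.5 to 10 kb 1.29 ± 0.0296 and 1.19 ± 0.0285. The lowest PAF1-HA library lay above the highest SKIP-HA library at each distance up to 10 kb. Within 500 bp of the edge SKIP-HA density was 1.07 ± 0.0394 times the library mean, while PAF1-HA density was 1.85 ± 0.0137 times. A peak of either protein that overlaps a region is merged into it, so next to the edge both are kept out. The counts also take in peaks of other members, which by the rule hold PAF1-HA and no SKIP-HA peaks. Another member lay within 1 kb of 242 members and within 10 kb of 591 (42.9%). The higher PAF1-HA density thus partly repeats the rule, and the parts of other members and of merging in these values were not tested.

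Around PAF1-HA regions with SKIP-HA peaks, the lines of the proteins ran closer together. At 500 to 1000 bp the densities there were 2.08 ± 0.0472 times the mean for PAF1-HA and 1.88 ± 0.0642 times for SKIP-HA. At 2 to 3 kb they were 1.48 ± 0.00332 and 1.37 ± 0.0185. SKIP-HA density at 2 to 3 kb was therefore higher beside members (1.44 to 1.54 over the 3 libraries) than beside regions that held SKIP-HA themselves (1.35 to 1.39). The opposite class, with at least 2 SKIP-HA and no PAF1-HA library, held 3855 regions, which is 10.4% of all regions on the chromosomes and 23.5% of those with at least 2 SKIP-HA libraries. Beside them the order was turned round at 500 to 1000 bp, with 1.54 ± 0.0334 for PAF1-HA and 1.72 ± 0.0434 for SKIP-HA. These counts likewise take in other regions of that class, which hold SKIP-HA and no PAF1-HA peaks by its rule.

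**Figure D4:**
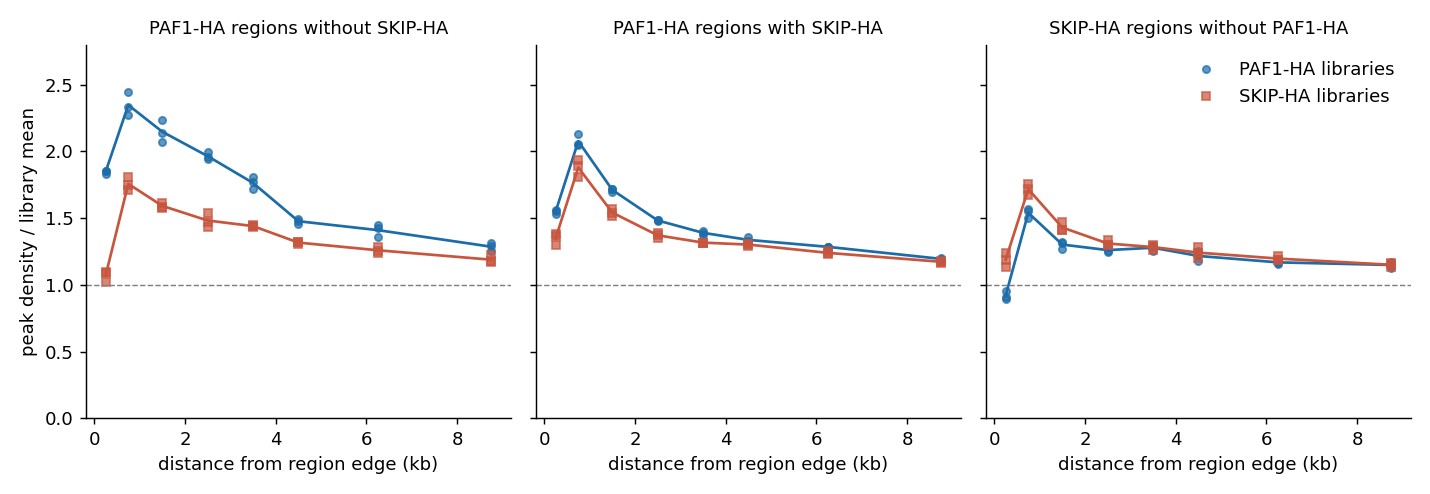
Peak density relative to each library's mean over the chromosomes (vertical axis, ratio; dashed line at 1) by distance from the region edge in kb, for PAF1-HA (blue circles) and SKIP-HA libraries (red squares), 3 points each with a line through their mean. In all 3 kinds of region both proteins stay above the mean from 500 bp to 10 kb, and the gap between them is widest beside PAF1-HA regions without SKIP-HA. Peaks in other regions of the same kind are counted.

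With all 6 libraries, members occurred singly more often than in groups, and the groups were small. The median gap from a member to the next was 14801 bp, at a mean density of 12.4 members per Mb. Another member lay within 1 kb of 242 members (17.5%, 95% Wilson interval 15.6 to 19.6), within 10 kb of 591 (42.9%, 40.3 to 45.5) and within 20 kb of 765 (55.5%). The share within 10 kb was 30%, 28.5% or 27.7% without PAF1-HA replicate 1, 2 or 3, which leave fewer members. It was 51.4%, 52.1% or 54.7% without SKIP-HA replicate 1, 2 or 3, which leave more members, so that members with a neighbour were then the majority. The 3855 regions with SKIP-HA and no PAF1-HA were 34.5 per Mb, and 16.7% of them had a neighbour of their kind within 1 kb. At wider limits the shares of the less dense members were below theirs, with 33.9% against 40.9% within 5 kb and 42.9% against 58.1% within 10 kb. Among the 3892 regions with 1 PAF1-HA library and no SKIP-HA, at 34.9 per Mb, 24.4% had a neighbour of their kind within 1 kb. When members at most 10 kb apart were chained, 788 stood alone, 173 runs held 2 members, 42 held 3 and 26 held 4 to 8. The 68 runs of 3 or more took in 245 members, and 17 of these runs had no SKIP-HA peak centre anywhere inside.

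The run with most members lay on chromosome 6 at 2071535 to 2080251, with 8 members in 8717 bp, of which 1 had all 3 PAF1-HA libraries. PAF1-HA replicates 1, 2 and 3 had 10, 6 and 9 peaks in it, and SKIP-HA replicates 0, 1 and 0. A run of 7 on chromosome 2 at 6526057 to 6535392 had 4, 7 and 8 PAF1-HA peaks and 0 SKIP-HA peaks, and none of its members had all 3 PAF1-HA libraries. A run of 5 on chromosome 17 at 3443111 to 3446766 had 7, 2 and 3 PAF1-HA peaks and 0 SKIP-HA peaks. In these runs PAF1-HA peaks were scattered, so that different members came from different pairs of libraries.

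Both runs of 6 on chromosome 5 held SKIP-HA peaks between their members. At 2837583 to 2851605 there were 13, 9 and 8 PAF1-HA peaks beside 1, 4 and 3 SKIP-HA peaks. At 3492375 to 3508873 there were 11, 16 and 16 PAF1-HA peaks beside 6, 4 and 6 SKIP-HA peaks. In the first, 6 of the 7 regions with SKIP-HA peaks also held PAF1-HA, and in the second 5 of 5 did.

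The 5 widest members with all 3 PAF1-HA libraries were led by chromosome 14 at 1005376 to 1008384, 3009 bp wide. PAF1-HA replicates 1, 2 and 3 had 3, 2 and 6 peaks in it, and the nearest SKIP-HA peaks of replicates 1, 2 and 3 were 3617, 4148 and 3806 bp away. Another member began 18 bp from it. It lay in a stretch of 11601 bp without SKIP-HA peaks that held 4 members, 3 of them with all PAF1-HA libraries. The next on chromosome 3 (7908755 to 7910743) was 1989 bp wide and 47 bp from SKIP-HA, and that on chromosome 5 (3507214 to 3508873) was 1660 bp wide and 480 bp away. The widest members on chromosome 1 (2660528 to 2662139) and chromosome 6 (2432579 to 2434181) were 1612 and 1603 bp wide and 4780 and 1681 bp away. These 5 members thus lay from 47 to 4780 bp from SKIP-HA, and width was not set against distance over all members.

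Few members lay deep in stretches without SKIP-HA peaks. Stretches under 1 kb, which leave little room for a member, held 104 (14.9 per Mb of such stretches). The stretch free of SKIP-HA peaks around a member had a median length of 3245 bp. Stretches of 1 to 2 kb held 363 members, or 61.5 per Mb, those of 2 to 5 kb held 419 (24.0 per Mb) and those of 5 to 10 kb 258 (10.5 per Mb). Stretches of 10 to 20 kb held 178 members (7.92 per Mb) and those of 20 kb or more 57 (3.60 per Mb). From 1 kb upward the density of members was lower in each longer class of stretch. Regions with 1 PAF1-HA library and no SKIP-HA library had shares close to those of members in the classes from 1 to 10 kb. These were 25.3%, 30.1% and 18.1% of such regions, against 26.3%, 30.4% and 18.7% of the members. At 10 to 20 kb and at 20 kb or more their shares were lower, with 9.66% and 2.85% against 12.9% and 4.13%. Under 1 kb their share was higher, with 545 of 3892 regions against 104 of 1379 members (7.54%). Of the 416 stretches of at least 20 kb, 47 held a member, and of the 2080 of at least 10 kb, 1590 held no PAF1-HA peak of any library.

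Of both stretches of at least 10 kb with 7 members, the most in any, the longer lay on chromosome 14. It ran from 715445 to 778963, 63519 bp without a SKIP-HA peak in any library, and held 7 members, 4 of them with all 3 PAF1-HA libraries. PAF1-HA replicates 1, 2 and 3 had 8, 4 and 13 peaks in it. Its members at 736332 to 736746, 737014 to 737495 and 757324 to 757736, all with 3 PAF1-HA libraries, were 20887, 21569 and 21227 bp from the nearest SKIP-HA peak. Peak centres of the 3 PAF1-HA libraries lay within 15, 82 and 13 bp of each other there. The fourth such member, at 776418 to 776850, was 2113 bp from SKIP-HA. By length this stretch ranked 40 among those of at least 10 kb.

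The 18 members more than 10 kb from SKIP-HA were spread over 9 chromosomes, with 6 of them in the chromosome 14 stretch. All 3 PAF1-HA libraries had peaks in 6 of the 18. The farthest was on chromosome 15 at 4713345 to 4713827, 42179 bp from SKIP-HA, with peaks of PAF1-HA replicates 1 and 3. The farthest with all 3 libraries was on chromosome 2 at 8655406 to 8655784, 23675 bp from SKIP-HA. It ended at the last position of any peak on chromosome 2. The fifth in that order, on chromosome 11 at 4478625 to 4479034, 12370 bp from SKIP-HA, also ended at the last peak position of its chromosome. On chromosome 5, the member at 172 to 578 began at the first, so that 3 of the 18 lay at an outermost position.

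Toward chromosome ends the share of members was lower within 100 kb and close to that over all within 20 kb. Within 100 kb of the outermost peaks they made up 6.93% of 462 PAF1-HA regions (95% Wilson interval 4.95 to 9.61), against 10.7% over all. Within 20 kb they made up 9.89% of 91 (5.29 to 17.7). Within 1 kb they made up 5 of 29 regions, or 17.2% (7.60 to 34.5), an interval that holds the share over all chromosomes.

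Members were found on all 17 chromosomes, with the lowest share on chromosome 15. There 30 of 481 PAF1-HA regions were members, or 6.24% (95% Wilson interval 4.40 to 8.76). The highest share was on chromosome 9, with 102 of 807, or 12.6% (10.5 to 15.1). The interval of chromosome 15 was the only one of the 17 that did not hold the 10.7% over all chromosomes. Chromosome 15 also had the fewest PAF1-HA regions per Mb, at 84.4, and 5.27 members per Mb against 16.4 on chromosome 14, which had 141 PAF1-HA regions per Mb. Relative to the share over all chromosomes, chromosome 15 stood at 0.581 and stayed between 0.434 and 0.776 when any 1 library was left out, while chromosome 9 stood at 1.18 and ranged from 1.01 to 1.17. The shares themselves moved more, on chromosome 15 from 3.98% without PAF1-HA replicate 1 to 13.8% without SKIP-HA replicate 3, and on chromosome 9 from 9.48% without PAF1-HA replicate 3 to 21.2% without SKIP-HA replicate 3. The 17 shares are a description, without a test. On chromosome 14, 25 of 69 members had all 3 PAF1-HA libraries, and on chromosome 10, 11 of 74.

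**Figure D5:**
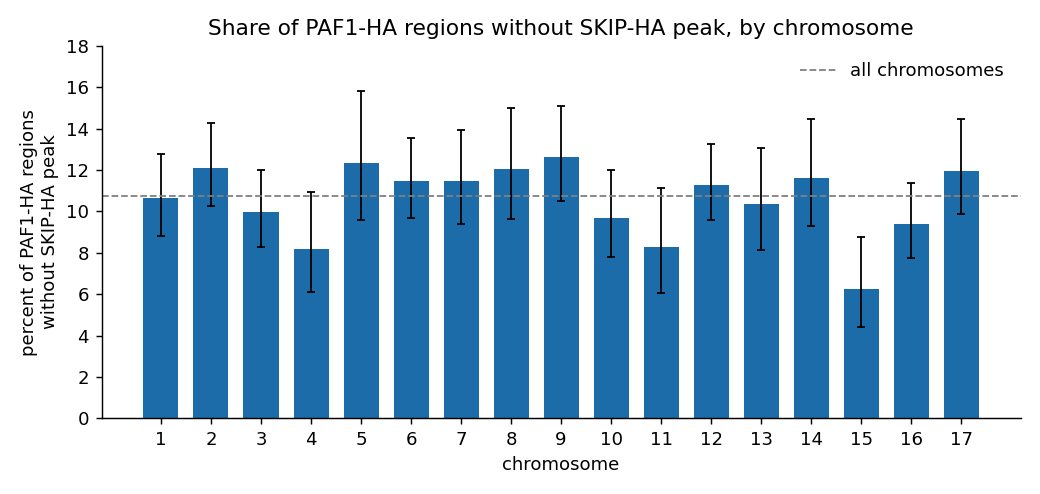
Percent of regions with at least 2 PAF1-HA libraries that had no SKIP-HA peak (vertical axis), for each of the 17 chromosomes; error bars are 95% Wilson intervals and the dashed line is the share over all chromosomes. Chromosome 15, at 6.24%, stands lowest with its interval under the line, and the other intervals hold it.

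Distances to SKIP-HA were short on every chromosome. The median distance of members to the nearest SKIP-HA peak was shortest on chromosome 4, at 242 bp over 41 members, and longest on chromosome 2, at 593 bp over 123. In the 103 complete windows of 1 Mb, the number of members had a median of 12 and ranged from 0 to 26. The variance was 1.99 times the mean. All PAF1-HA regions varied between these windows as well, from 12 to 179, and the part of this in the variance was not tested. The window without members was on chromosome 15 at 3000001 to 4000000, which had 20 PAF1-HA regions. The window with 26 was on chromosome 17 at 3000001 to 4000000, where they made up 19.4% of 134 PAF1-HA regions.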

How the data were processed

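Intervals of 6 ChIP-seq libraries were read, 3 from each tagged line. The deposited values are interval starts and ends in bp, made by the authors per library and without a score. Bowtie2 and HOMER are named for 9 samples and MACS3 for 4, per the submitters' processing notes, without version or role. MACS3 is thus not named for all 6 of the libraries compared here. Whether their lists were called alike was not tested. Neither build nor threshold nor control is given in the sources used here. On chromosome 15 peaks reach 5824251, while the last gene of the version 5.5 RefSeq gene table ends at 1921949. No peak was therefore placed in a gene and no sequence read. Python 3.11.15 was used for merging, distances and counts, with scipy 1.17.1 for intervals, pandas 2.3.3 and numpy 2.4.6 for tables, and matplotlib 3.10.9 for plots. The merging, distance and chaining steps were checked on simulated data. A distance is the number of bases between edges. The members and the rules for naming regions (farthest, nearest and widest members with 3 PAF1-HA libraries, largest runs, highest and lowest chromosome) were chosen with earlier results of these data known. Stretches, windows, chromosome ends and other members named were chosen after their values were seen. Alternatives left out libraries and changed merging, thresholds and widths.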

Additional observations from a re-analysis of the deposited data

Results flagged for a closer look

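Outside the chromosomes, which the rule leaves out, 5 of 106 merged regions (4.72%) had peaks of at least 2 PAF1-HA and no SKIP-HA library, against 3.73% on the chromosomes. They are given because they lie in data that the report does not use. Of these, 4 were on the plastome, at 50832 to 51463, 51519 to 52001, 52169 to 52622 and 157789 to 158273, and 1 was on a contig. The first 3 plastome regions had peaks of PAF1-HA replicates 1 and 3, and the last had peaks of all 3 PAF1-HA libraries. No untagged libraries were at hand as a control for these values.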

How the results depend on the processing

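The number of members depended on the rule. It ranged from 697 to 2568 when 1 library was left out, or 8.81 to 19.9% of the regions with at least 2 PAF1-HA libraries. Fewer SKIP-HA lists exclude fewer regions, and without 1 PAF1-HA list only 2 remain to give 2 peaks. In the next settings the percent in brackets is again of the regions with at least 2 PAF1-HA libraries in that setting. The number was 308 (2.40%) with all 3 PAF1-HA libraries required and 2334 (19.0%) with an overlap of at least 200 bp. It was 2345 (19.1%) with intervals trimmed to their central 200 bp. When intervals up to 200 and 1000 bp apart were merged it was 810 (7.03%) and 229 (2.81%). With replicates 1 and 2 alone it was 1297 (16.6%), and with PAF1-HA intervals merged first 1379 (10.6%). The median distance to SKIP-HA ranged from 360 to 555 bp over libraries left out. By construction it was 53 bp with the 200 bp overlap, and 693 and 2897 bp with merging over 200 and 1000 bp. The share with another member within 10 kb ranged from 27.7 to 54.7% over libraries left out. It was 35.7% with replicates 1 and 2, 51.6% with the 200 bp overlap, 51.3% with the central 200 bp, 29.4 and 10.04% with merging over 200 and 1000 bp, and 19.2% with 3 PAF1-HA libraries. Within 5 kb it was 33.9% and within 20 kb 55.5%. Without the chromosome 14 stretch, an alternative chosen after the data were seen, it was 42.6%. Over libraries left out, the share of members was 9.48 to 21.2% on chromosome 9 and 3.98 to 13.8% on chromosome 15. The shares in lists left out ranged from 47.9 to 55.1% for PAF1-HA and from 37.6 to 47.1% for SKIP-HA. The flank densities at 500 to 1000 bp, in runs added after the data were seen, ranged from 2.27 to 2.50 for PAF1-HA and from 1.71 to 1.88 for SKIP-HA. No paired analysis was possible because no result comes from a test. The read depth is unknown, so how far it set the missing SKIP-HA calls was not tested.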
